A study of Mus musculus with 11 samples.

Results

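Mouse fibroblasts reprogrammed with OK+9MS, a cassette whose Klf4 carries 9 more residues than the Klf4 of OKMS, were compared with fibroblasts reprogrammed with OKMS itself. Each gene's value was its level on the OK+9MS array minus its level on the OKMS array, on the log2 scale, where 1 is a 2-fold difference. A gene was included when its log2 signal was at least 7 on either array, which held for 12198 of 19938 genes measured (61.2%). Of these, 11431 reached 7 on both arrays, 493 on the OK+9MS array alone and 274 on the OKMS array alone. Just inside that limit lay Ccdc149, at 6.91 in OKMS and 7.0 in OK+9MS.

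The cells were embryonic fibroblasts from male F1 embryos at 13.5 days post coitum, with a ROSA-rtTA transactivator from a C57Bl6 backcross mother and a Nanog-GFP BAC transgene from a C57Bl6/129SV father. PB-TAC transposons and the pCyL43 transposase plasmid were introduced with FugeneHD, and after 24 h the medium was changed to ES cell medium with doxycycline at 1 ug/mL, which switches on the cassette and an mCherry reporter. OKMS, OK+9MS, 6 other polycistronic cassettes (OSKM, MKOS, STEMCCA, EB-C5, WTSI and OKN-HAMS) and 2 constructs with Klf4 alone (Klf4S and Klf4L, the second titled Klf4+9) were sorted for mCherry on day 6, and a lacZ control was taken on day 2 without that sort. There was 1 array per construct, so no difference here has a replicate check, no p-value was computed, and the spread between repeated cultures of the same cassette is not known. The arrays hold mixed sorted populations, in which more cells of a kind and more RNA per cell cannot be told apart.

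Klf4 is a zinc finger transcription factor that binds CACCC-type and GC-rich sites. In skin it is needed for the differentiation of the upper epidermis and for the barrier, and in early reprogramming it is known to activate epithelial genes while fibroblast genes are switched off. Pluripotency genes such as Nanog are normally activated later and in few of the cells.

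The label was checked first. The fibroblast genes Vim (13.55 in OKMS and 13.61 in OK+9MS) and Thy1 (11.36 and 11.30) were high on both arrays. Among markers of other cell types, Ptprc, Adgre1 and Csf1r of macrophages read between 5.41 and 6.01, and Sox10 of neural crest read 6.91 and 6.90. Over all genes measured, 2.25% were at least 2-fold higher in OK+9MS. Of 11 macrophage markers 2 reached signal 7 and 1 was at least 2-fold higher in OK+9MS (Cd68, 8.39 and 9.62). The counts were 5 and 1 of 11 endothelial markers (Eng, 9.24 and 10.28), 3 and 2 of 7 markers of neural crest and glia (Erbb3, 7.32 and 10.05, and Fabp7, 9.21 and 10.44), 3 and 0 of 7 blood markers and 5 and 0 of 11 muscle markers, with none lower. Of 9 keratinocyte markers measured, 8 reached signal 7 and 4 were at least 2-fold higher, with none lower and a median difference of 0.61. The part of such cells in the results was not tested. Pou5f1, a factor of both cassettes, read 13.22 in OKMS and 13.01 in OK+9MS, Klf4 read 9.94 and 9.81, and Myc 10.76 and 10.91. Sox2 read 6.58 and 6.57, under the limit of 7. The position of the probes within each transcript was not used here, so these signals do not measure the amount of each factor made from the cassette.

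OK+9MS and OKMS differed by at least 2-fold in 621 of the 12198 genes (5.09%). In 449 genes (3.68%) the signal was higher in OK+9MS, and in 172 (1.41%) it was lower. The higher side was also the more extreme. There, 103 genes differed by at least 4-fold, 35 by at least 8-fold and 13 by at least 16-fold, against 17, 2 and 1 on the lower side. Most genes lay close to equality, with 9869 (80.9%) within 0.5 of 0, a median of 0.01 and an SD over genes of 0.519. In 148 of the 449 and 51 of the 172 one of the arrays read below 7, and in 27 and 5 it read below 6, where a level cannot be told from background and the difference is a lower bound in size.

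Whether 621 genes is many depends on the arrays set beside it. Among the 15 pairs that can be formed from the other 6 cassettes, between 179 and 1239 genes differed by at least 2-fold, with a median of 706, and 10 of the 15 pairs exceeded 621. Klf4L and Klf4S, which differ by the same labelled extension, differed by at least 2-fold in 0 of 11941 genes (0%), and their SD over genes was 0.126. The distance between OKMS and OK+9MS thus lay within the range for cassettes of different design and above that for the constructs with Klf4 alone.

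**Figure D1:**
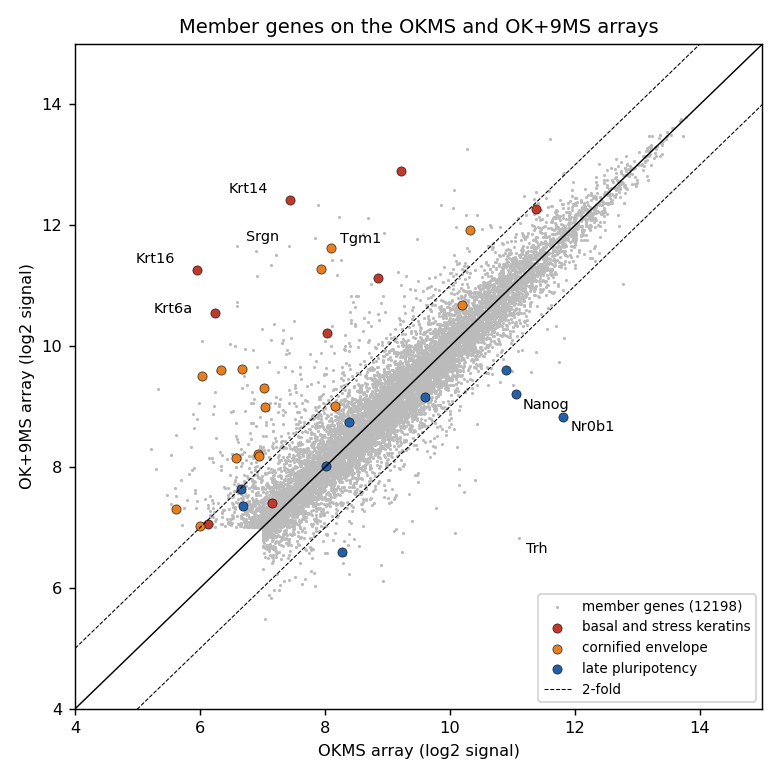
Log2 signal of each of the 12198 genes on the OKMS array (horizontal axis) and the OK+9MS array (vertical axis), with 1 array per construct; the solid line marks equality and dashed lines mark 2-fold. Red, orange and blue points are the genes of 3 lists that reached signal 7: basal and stress keratins and cornified envelope genes lie on or above the line of equality, and 4 late pluripotency genes lie below the lower dashed line.

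Several keratins of stratified epithelium were among the 15 genes with the largest differences. Krt16, a keratin of activated and wounded epidermis, read 5.95 in OKMS and 11.26 in OK+9MS, a difference of 5.31 that is a lower bound because the OKMS level lay below 6. Krt14, the keratin of basal epidermal cells, read 7.45 and 12.42, and Krt6a, another keratin of wounded and hyperproliferative epidermis, read 6.24 and 10.56. The smallest of these 3 differences, that of Krt6a, was 19.9-fold. On the other cassettes Krt14 read 12.48 in OSKM, 12.34 in OKN-HAMS and 10.57 in MKOS, and between 6.76 and 6.97 in STEMCCA, EB-C5 and WTSI. The OK+9MS level thus lay near those of OSKM and OKN-HAMS, and the OKMS level near those of STEMCCA, EB-C5 and WTSI.

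Other genes of the epidermis were among the 15 largest. Alox12b, a lipoxygenase required to form the lipid barrier, read 6.90 in OKMS and 11.57 in OK+9MS (difference 4.67). Klk10 and Klk14, serine proteases of the kallikrein family, differed by 4.44 and 4.07. Of 22 kallikreins measured, 5 were at least 2-fold higher, beside 2.25% of all genes measured. Klk5 (5.70, 5.62) and Klk7 (6.84, 7.26) stayed under 2-fold. Slurp1, a secreted protein of keratinocytes, read 6.60 and 10.73. Dsg3, the desmosomal cadherin of the lower epidermis, read 5.33 and 9.28, again a lower bound. Not all of the 15 were epidermal. Srgn, the core protein of a secretory granule proteoglycan known mainly from blood cells, read 6.60 and 11.65, and it was 12.12 in OSKM, 7.70 in MKOS and 9.38 in OKN-HAMS. Krt90 read 7.22 and 11.52, and its highest signals, 13.07 and 12.97, were those of Klf4S and Klf4L. The others were Nccrp1 (4.25), Mall (4.24), Crybg1 (4.21), Cwh43 (4.05) and Urah (3.95). Crybg1 has 2 probe sets that disagreed, with differences of 4.21 and 0.10, so its value depends on which one is read.

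The 15 genes with the largest drop were of another kind. Trh, the precursor of thyrotropin-releasing hormone, read 11.11 in OKMS and 6.82 in OK+9MS, a difference of -4.29. Its level was 9.99 in STEMCCA, 7.61 in EB-C5 and 7.23 in WTSI, between 6.39 and 6.54 in OSKM, MKOS and OKN-HAMS, and 6.33 in lacZ. OKMS therefore had the highest Trh signal of all 11 arrays, and the OK+9MS level was nearer that of lacZ, which differs from both also in day and sort. Nr0b1 (Dax1), an orphan nuclear receptor of embryonic stem cells, read 11.81 in OKMS and 8.83 in OK+9MS. Fut9, the fucosyltransferase that makes the SSEA-1 surface epitope of pluripotent cells, read 9.23 and 6.60. Nnat, an imprinted gene of the developing brain, read 10.40 and 7.78, but lacZ cells also had 10.37, so for this gene OK+9MS lay away from the control and OKMS near it.

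Pllp, a membrane protein of myelin, differed by -3.19, Fndc3c1 by -2.82 and Cadm1, a cell adhesion molecule, by -2.64. After these came the synaptic vesicle protein Sv2b (-2.52), Cnpy1 (-2.45) and Bcl11a (-2.45), a zinc finger repressor of neurons and blood precursors. Zdbf2 (-2.34), the adaptor of reelin signalling Dab1 (-2.28), the homeobox gene Nkx2-9 (-2.18), the tetraspanin Tspan12 (-2.16) and the amino acid transporter Slc38a5 (-2.15) completed the set.

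**Figure D2:**
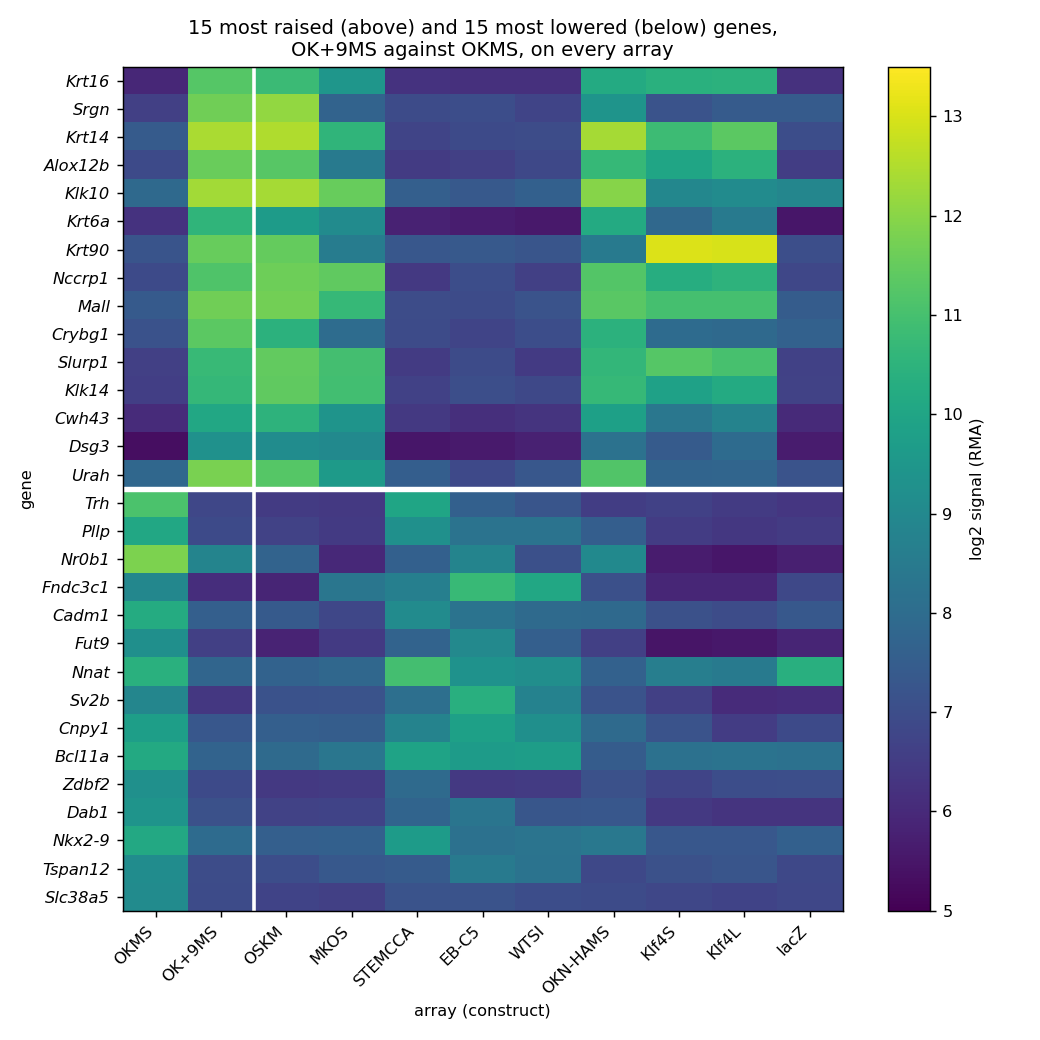
Log2 signal (colour) of the 15 genes with the largest higher and the 15 with the largest lower difference (rows) on all 11 arrays (columns), 1 array per construct, with OKMS and OK+9MS at the left of the white line. In the upper block OSKM, MKOS and OKN-HAMS share the bright colours of OK+9MS for most genes, while in the lower block OKMS is brighter than OK+9MS in every row.

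Bases upstream of the start are shown for the genes at the ends of the order, since they are the stretches where factors such as Klf4 and Oct4 could bind. They are the 3 highest and 3 lowest named genes with a single promoter entry in RefSeq (GRCm38), each given as 250 bases before the transcription start, 5′ to 3′ on the gene's strand. Capitals mark CACCC or GGGTG (the same motif on either strand) and ATGCAAAT or ATTTGCAT, the octamer of Oct4. The positions are chr11:69156822-69157071 (plus strand) for Alox12b, chr7:43780804-43781053 (plus strand) for Klk10, chr15:101562951-101563200 (minus strand) for Krt90, chr6:92244651-92244900 (minus strand) for Trh, chr8:94696243-94696492 (minus strand) for Pllp and chrX:86191525-86191774 (plus strand) for Nr0b1.
Alox12b: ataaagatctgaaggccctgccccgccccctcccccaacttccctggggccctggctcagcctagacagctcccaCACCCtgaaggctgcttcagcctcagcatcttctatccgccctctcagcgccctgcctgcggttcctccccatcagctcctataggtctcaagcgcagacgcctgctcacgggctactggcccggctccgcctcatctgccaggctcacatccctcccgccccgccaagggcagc
Klk10: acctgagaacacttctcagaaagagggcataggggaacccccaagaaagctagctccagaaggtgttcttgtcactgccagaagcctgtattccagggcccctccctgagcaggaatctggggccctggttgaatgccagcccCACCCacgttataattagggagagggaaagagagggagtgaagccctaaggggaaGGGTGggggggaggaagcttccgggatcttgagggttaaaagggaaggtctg
Krt90: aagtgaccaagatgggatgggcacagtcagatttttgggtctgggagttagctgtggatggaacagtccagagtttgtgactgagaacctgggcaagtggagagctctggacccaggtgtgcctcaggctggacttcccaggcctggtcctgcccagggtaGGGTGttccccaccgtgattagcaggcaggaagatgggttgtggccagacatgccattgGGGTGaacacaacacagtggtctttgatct
Trh: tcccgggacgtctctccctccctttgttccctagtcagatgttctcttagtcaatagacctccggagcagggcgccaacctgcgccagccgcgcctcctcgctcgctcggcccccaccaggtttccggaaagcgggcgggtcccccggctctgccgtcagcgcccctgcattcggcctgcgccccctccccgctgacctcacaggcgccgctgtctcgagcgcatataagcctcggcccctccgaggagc
Pllp: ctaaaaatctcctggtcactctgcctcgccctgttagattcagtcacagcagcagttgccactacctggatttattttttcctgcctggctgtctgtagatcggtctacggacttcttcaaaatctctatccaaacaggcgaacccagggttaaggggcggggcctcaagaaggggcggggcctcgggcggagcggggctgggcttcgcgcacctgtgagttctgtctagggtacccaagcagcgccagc
Nr0b1: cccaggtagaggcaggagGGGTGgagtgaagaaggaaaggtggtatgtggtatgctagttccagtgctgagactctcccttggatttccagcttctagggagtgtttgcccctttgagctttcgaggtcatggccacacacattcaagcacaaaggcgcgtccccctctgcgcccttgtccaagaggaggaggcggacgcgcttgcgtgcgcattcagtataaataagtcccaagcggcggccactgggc
The CACCC motif occurred 1 time before Alox12b, 2 times before Klk10 and before Krt90, 1 time before Nr0b1 and 0 times before Trh and Pllp, and the octamer occurred in none of the 6. Over the same 250 bases, the CACCC motif lay in 52.0% of all 32851 promoters and 58.2% of those of the genes included here. It lay in 70.9% of 333 promoters of the genes at least 2-fold higher and 60.5% of 129 of those lower. The octamer lay in 1.60% of all promoters, 1.27% of those of the genes included here, 0.601% of the higher set and 3.88% of the lower set, the last being 5 promoters. A match is a string of letters in a window and shows no binding.

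Gene lists put single genes in context. In each list the counts below are of all its measured members, beside 449 of all 19938 genes measured (2.25%) for the higher side and 172 (0.863%) for the lower side, and the median difference over all genes was 0.01.

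Of 12 basal and stress keratins, 9 reached signal 7 and 6 were at least 2-fold higher in OK+9MS, with none lower and a median of 1.55. Beside Krt16, Krt14 and Krt6a these were Krt17, a partner of Krt6 in stressed epidermis (9.21 in OKMS, 12.90 in OK+9MS), Krt13 of the inner stratified epithelia (8.85, 11.12) and Krt80 (8.03, 10.21). Krt6b, a near copy of Krt6a, read 11.37 and 12.27, so it was already high in OKMS. The signals of the pair moved apart. In OKMS Krt6a read 6.24 beside 11.37 for Krt6b, and in MKOS Krt6a read 9.08 beside 6.79. The usual partner of Krt14 did not follow it, since Krt5 read 7.15 and 7.41, and Krt10, of the suprabasal layers, read 6.91 and 6.94. Trp63, the p63 regulator that defines basal keratinocytes, read 7.0 and 7.04, and between 6.88 and 7.17 on the other 8 reprogramming arrays and 6.99 in lacZ. The basal keratin signal was thus high on an array where the p63 signal stood at the lacZ level.

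Of 6 keratins of simple epithelia, 4 reached signal 7 and the same 4 were at least 2-fold higher, with a median of 1.47 over all 6. Krt8 and Krt18, which pair in simple epithelium, read 11.61 and 7.60 in OKMS and 13.43 and 9.65 in OK+9MS. Krt19 differed by 2.47 and Krt7 by 1.11.

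In the cornified envelope list, the proteins crosslinked under the membrane of dying keratinocytes and the enzymes that crosslink them, 15 of 22 members reached signal 7 and 13 were at least 2-fold higher, with none lower and a median of 1.26. Tgm1, the main crosslinking enzyme, read 8.10 in OKMS and 11.62 in OK+9MS. The substrates Sprr1a (7.94, 11.27), Sprr1b (6.33, 9.60) and Sprr3 (6.67, 9.62) and the sciellin gene Scel (6.02, 9.51) were 2.95 to 3.49 higher, and Lypd3, a surface protein of differentiating keratinocytes, 2.29 higher. Ivl (involucrin) reached 7.03 from 6.00, just over 2-fold. Lor (loricrin), the major protein of the finished envelope, read 6.41 and 6.65, under the limit. Krtdap, high on both arrays at 10.19 and 10.69, differed by 0.50.

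Among 26 epidermal proteases, serpins and lipid enzymes, 12 reached signal 7, 8 were at least 2-fold higher and none was lower, with a median of 0.32. Beside Alox12b and Klk10 they included Cers3 (5.98, 9.06), which makes the very long ceramides of the barrier, Abca12 (5.88, 8.88), which loads lipid into lamellar granules, the serpin Serpinb5 (5.21, 8.29) and Klk8 (6.85, 9.07). Klk13, at 1.00, fell just short of the threshold. The OKMS levels of Cers3, Abca12 and Serpinb5 were all below 6, so these differences are lower bounds.

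Junction genes had a smaller median difference than the keratin and cornified envelope lists. Of 33 genes of epithelial adhesion and junctions, 32 reached signal 7 and 15 were at least 2-fold higher, with none lower and a median of 0.78. The tight junction claudins Cldn4 (8.20 in OKMS, 11.17 in OK+9MS), Cldn6 (8.47, 10.33) and Cldn7 (7.43, 9.07), the desmosomal cadherin Dsc2 (7.94, 9.89), the polarity protein Crb3 (7.52, 9.36) and the adhesion molecule F11r (9.21, 11.01) led the list. Cldn11, a claudin outside the list that was picked after its values were seen, was lower, at 8.75 and 7.38. Cdh1 (E-cadherin), whose gain marks the shift from fibroblast to epithelium, read 10.10 in OKMS and 11.40 in OK+9MS. It read 6.36 in lacZ, so both arrays lay well above the control and the difference of 1.31 lay within that range. Epcam, at 9.26 in OKMS and 0.74 higher in OK+9MS, stayed under 2-fold.

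Of 24 epithelial regulators and trafficking genes, 20 reached signal 7 and 6 were at least 2-fold higher, with a median of 0.32. These were Mal2 (8.11, 11.43) and Rab25 (6.82, 9.05) of apical transport, the 14-3-3 protein Sfn (10.05, 12.28), the ETS factor Ehf (9.17, 11.23), the zinc finger repressor Ovol1 (7.12, 9.06) and the membrane protease St14 (9.83, 11.19). Of the 24, 21 read higher in OK+9MS and 3 lower, with -0.97 as the lowest difference. Some other regulators differed by less than 2-fold. Grhl3 read 8.39 and 9.19, Esrp1 read 9.37 and 9.77, and Klf5 read 8.76 and 8.78.

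**Figure D3:**
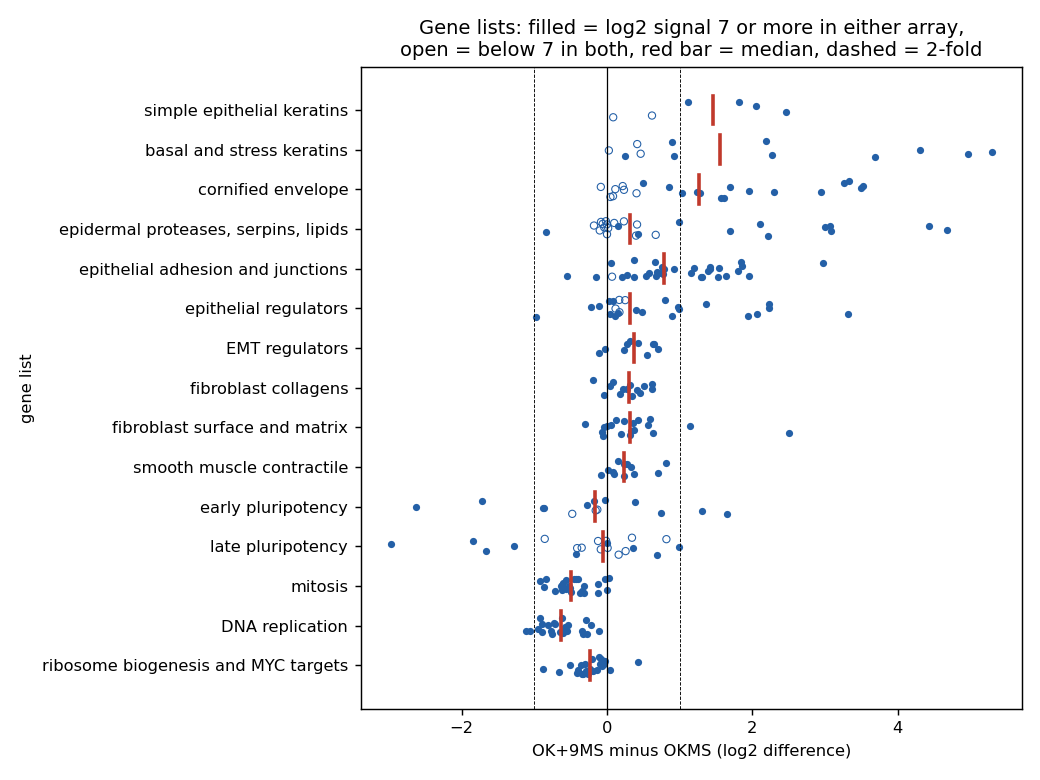
OK+9MS minus OKMS (log2, horizontal axis) for every measured member of 15 gene lists (rows), where filled points reached signal 7 on either array, open points did not, red bars are medians over all measured members and dashed lines mark 2-fold. The keratin and cornified envelope medians lie beyond 1, the fibroblast medians between 0 and 0.5, and the mitosis and DNA replication medians at -0.49 and -0.63.

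No member of the fibroblast lists was 2-fold lower. None of 10 regulators of the epithelial to mesenchymal transition, such as Snai1, Zeb1 and Twist1, differed by 2-fold, and their median was 0.37. Of 14 fibroblast collagens none did, with a median of 0.30, and of 12 contractile genes of smooth muscle none did, with a median of 0.24. In the list of 19 fibroblast surface and matrix genes, 2 were at least 2-fold higher and none lower, with a median of 0.31. Those 2 were Dcn (decorin), at 10.07 in OKMS and 12.58 in OK+9MS, and S100a4, at 9.65 and 10.79. Dcn was also above the OKMS level on the other 6 cassettes, where it lay between 10.87 and 12.61.

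Pluripotency genes went in both directions. Of 14 early genes, 11 reached signal 7, with 2 at least 2-fold higher (Lin28a, 6.81 and 8.47, and Cdh1) and 2 lower (Fut9 and the alkaline phosphatase Alpl, 11.29 and 9.57), and a median of -0.16. Cdh1 is the junction gene described above, which leaves Lin28a as the other early gene at least 2-fold higher. Of 20 late genes, 9 reached signal 7 and 4 were lower, with none higher and a median of -0.05. Those 4 were Nr0b1, Nanog (11.05 in OKMS, 9.20 in OK+9MS), Nr5a2 (8.26, 6.60) and Utf1 (10.89, 9.61). The Nanog signal was 10.60 in STEMCCA and between 7.33 and 9.93 in the other 5 cassettes, so OKMS was the highest of the 8 and OK+9MS was within their range. Esrrb (6.68, 7.36) and Tfcp2l1 (6.65, 7.64) read higher in OK+9MS without reaching 2-fold. Zfp42, Dppa3 and Dppa5a lay between 5.42 and 6.27 on both arrays.

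Growth-related lists shifted by less than 2-fold but with few exceptions. All 24 DNA replication genes read lower in OK+9MS, with a median of -0.63. Only the polymerase subunits Pold1 (9.56, 8.45) and Pole (10.43, 9.36) reached 2-fold. The mean level of this list was 10.26 in OKMS, 9.62 in OK+9MS and 9.65 in lacZ. In the other 6 cassettes it ran from 8.96 (MKOS) to 10.24 (EB-C5), so OK+9MS lay within their range and OKMS just above it. Of 25 mitosis genes 23 read lower, with a median of -0.49 and none at 2-fold, and Mki67 read 10.70 and 10.18. Of 25 genes of ribosome biogenesis and MYC targets 23 read lower, with a median of -0.23. Of all genes included, 5916 of 12198 read lower. Uhrf1, which maintains DNA methylation at replication, differed by -1.04. The share of cycling cells was not measured.

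Signalling lists held single genes that stood out. Wnt7a, a Wnt ligand of the epidermis, read 6.24 in OKMS and 9.24 in OK+9MS, while the Wnt effector Lef1 (9.75, 8.34) and the Notch target Hey1 (8.60, 7.42) were lower, and the 19-gene list had a median of 0.01, which fell below 0 with median centring, loess or quantile normalization (-0.06 at the lowest). Bmp2 (6.99, 8.24) and its target Id1 (9.40, 10.50) were higher among 14 BMP genes. Cxcl16 (7.10, 9.74), Ptgs2 (10.43, 12.17) and Cxcl14 (8.70, 9.89) were higher among 23 chemokine and cytokine genes, none of which was 2-fold lower. Of 17 FGF and ERK feedback genes, 14 Kruppel-like factors, 25 interferon genes and 29 Hox genes, none differed by 2-fold.

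The remaining 9 arrays were then asked which of the pair they resembled, gene by gene. Of the 449 higher genes, 427 (95.1%) were nearer the OK+9MS level than the OKMS level in OSKM, 379 (84.4%) in OKN-HAMS and 308 (68.6%) in MKOS. The numbers were 63 (14.0%) in WTSI, 58 (12.9%) in STEMCCA and 34 (7.57%) in EB-C5, and 110 (24.5%) in lacZ. In the constructs with Klf4 alone they were 206 (45.9%) in Klf4S and 221 (49.2%) in Klf4L. The same share over all included genes with a difference above 0, most of them small, was 68.2% in OSKM, 48.9% in OKN-HAMS and 68.1% in MKOS. It was 42.7% in WTSI, 51.9% in STEMCCA, 41.4% in EB-C5, 60.0% in lacZ, 68.3% in Klf4S and 67.1% in Klf4L. The 449 genes thus lay above the share of all genes in OSKM and OKN-HAMS, about at it in MKOS and below it on the other 6 arrays. The median level of the 449 genes was 7.54 in OKMS, 9.32 in OK+9MS and 7.41 in lacZ.

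Of the 172 lower genes, the number nearer OK+9MS was 168 (97.7%) in OSKM, 157 (91.3%) in MKOS, 147 (85.5%) in OKN-HAMS, 161 (93.6%) in Klf4S, 163 (94.8%) in Klf4L and 144 (83.7%) in lacZ. Over all included genes with a difference below 0 these shares were 70.9%, 68.5%, 60.0%, 63.9%, 66.4% and 59.1%. The counts were 90 (52.3%) in STEMCCA, 90 (52.3%) in WTSI and 68 (39.5%) in EB-C5, against 55.3%, 51.5% and 43.2% over all such genes. OKMS had the highest level of the 8 cassettes in 115 of the 172, against 1767 of all 12198 genes, and OK+9MS the lowest in 35, against 807. Of the 449, OK+9MS was the highest in 148, against 1027 of all, and OKMS the lowest in 107, against 1392. The rule chose both sets by these 2 levels, which favours such ranks, so the counts are a description only. Which form of Klf4 the other 6 cassettes carry is not stated in the labels, and they were not grouped by it.

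**Figure D4:**
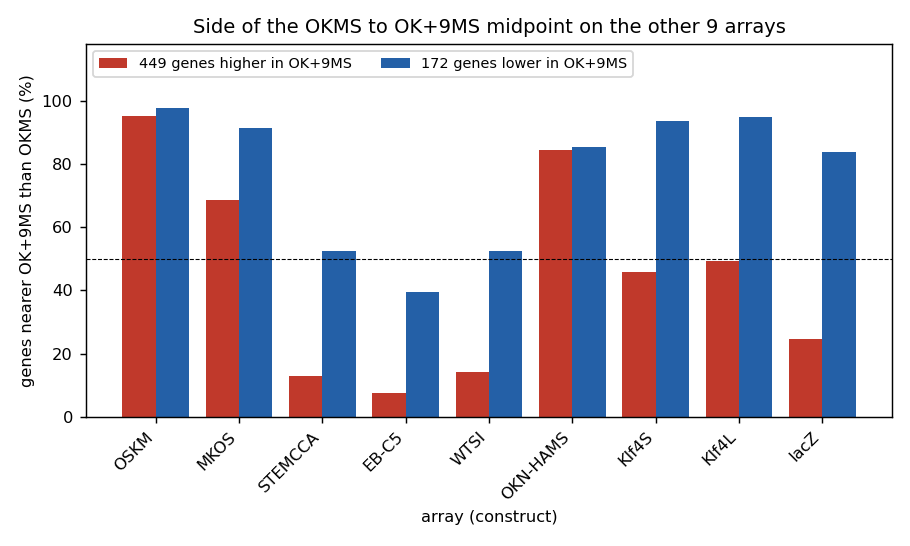
Percentage of the 449 genes at least 2-fold higher (red) and the 172 genes at least 2-fold lower (blue) in OK+9MS whose level on each of the other 9 arrays was nearer OK+9MS than OKMS, 1 array per construct, with a dashed line where as many genes are nearer to either array. OSKM, MKOS and OKN-HAMS lie above the line in both colours, EB-C5 lies below it in both, and the other 5 arrays lie above it in blue only.

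The same labelled extension on Klf4 alone gave much smaller differences. Klf4L minus Klf4S, which uses neither the OKMS nor the OK+9MS array, ranged from -0.70 to 0.93 over the genes. Among genes at signal 7 or more on either of those arrays, Mmp13 (0.93), a collagenase, Sprr1b (0.76), Khdc1a (0.74), Klk7 (0.72), an epidermal protease, and Mtres1 (0.70) were the largest upward, and Ung (-0.70), Cnpy1 (-0.67), Dbn1 (-0.55), Lhb (-0.52) and Fzd10 (-0.50) downward. Across the 12198 genes the 2 differences had a Pearson correlation of 0.10, given as a description since genes are not independent. Over the 449 genes the median of Klf4L minus Klf4S was 0.02, and over the 172 it was -0.05.

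Where Klf4 alone showed any difference, part of it lay in the same epidermal genes. Among the 12198 genes, 23 were at least 0.5 higher in Klf4L, and 10 of these (43.5%) belonged to the 449. Of all 12198 genes, 3.68% belonged to the 449, which is the share to set beside 43.5%. The 10 made up 2.23% of the 449. Some of the 10, such as Dsg3 (5.33 in OKMS) and Krt6a (6.24), passed the limit of 7 only on the OK+9MS array. Such entry favours overlap with the 449, so the count is a description only. The 10 included Sprr1b, Krt6a (0.58), Krt14 (0.53), Krt13 (0.52), Dsg3 (0.52), Mal2 (0.50), the filaggrin protease Asprv1 (0.68) and Sprr2b (0.61). Sprr2b read 5.15 in Klf4S and 5.76 in Klf4L, where a level cannot be told from background. Krt14 read 10.84 in Klf4S and 11.37 in Klf4L, against 7.45 in OKMS and 7.01 in lacZ. Both forms of Klf4 alone therefore gave a Krt14 signal far above that of OKMS. Of 14 of the 12198 genes at least 0.5 lower in Klf4L, Cnpy1 and Sv2b (-0.58) were among the 172. Cldn7 (-0.52) was among the 449, in the opposite direction. Sv2b and Cldn7 were under signal 7 in both Klf4 constructs. With 1 array per form, differences of this size have no error estimate.

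**Figure D5:**
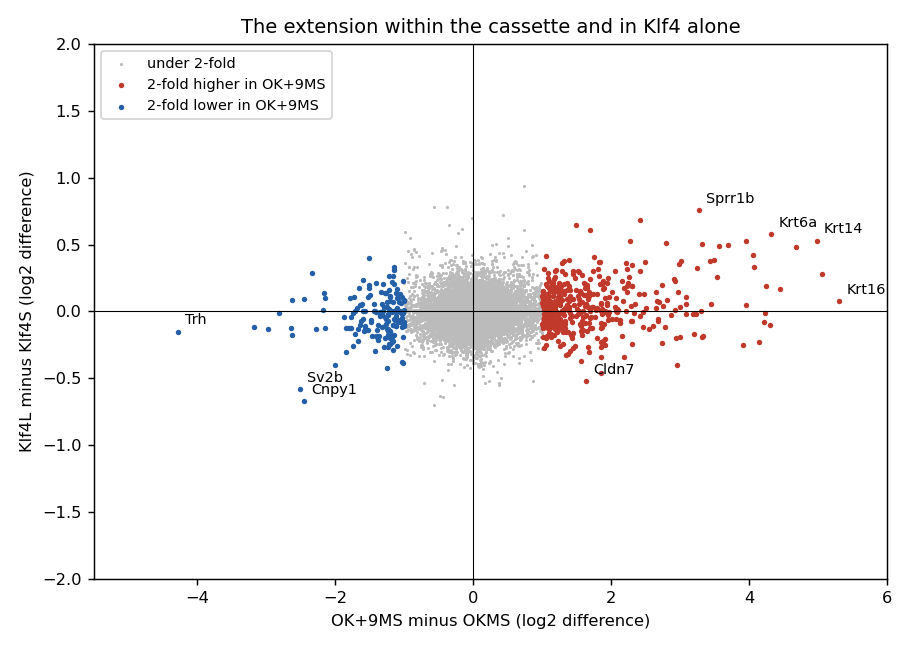
OK+9MS minus OKMS (horizontal axis, log2) against Klf4L minus Klf4S (vertical axis, log2) for the 12198 genes, with genes at least 2-fold higher in OK+9MS in red and lower in blue. The points spread from -4.29 to 5.31 across and only from -0.70 to 0.93 upward, and the named epidermal genes lie to the right and mostly above 0.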

How the data were processed

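Expression was measured on 11 Affymetrix mouse gene arrays, 1 per construct. The values are log2 signals that the authors made with RMA, per the submitters' processing notes, which name no version. They were used as deposited, and array medians lay between 7.19 and 7.27. RMA can understate large differences, and depth has no counterpart here, so the number of arrays limits the precision. Of 28856 probe sets, 21789 had 1 gene symbol, 1621 several and 5446 none. Current symbols came from Entrez for 21698 of them. Only probe sets with 1 symbol were used. For 999 genes with more than 1 probe set the one with the highest overall mean was taken, which gave 19938 genes. Genes with a log2 signal of at least 7 on either array were compared, and 2-fold was the threshold for a call. With 1 array a side no test was run.

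The members and the 39 gene lists (658 of 696 entries measured) were chosen with earlier results of these data known. Genes named were the 15 largest differences each way, up to 6 list members at 2-fold or more, the 4 reprogramming factors, the 5 largest of Klf4L minus Klf4S each way among genes at signal 7 on either of those arrays and defining list members. Predicted genes, clone names, small RNAs, receptor families of smell and taste and immune receptor segments were not named. Promoters came from RefSeq (GRCm38). Alternatives were other signal limits and fold thresholds, median centring, loess, quantile normalization and the mean of probe sets. Python 3.11.15, pandas 2.3.3, numpy 2.4.6, statsmodels 0.14.6 and matplotlib 3.10.9 were used. The counting of 2-fold genes was tested on simulated data with planted differences well above 2-fold in genes above signal 7. Calls near either limit were not tested by it.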

Additional observations from a re-analysis of the deposited data

Results flagged for a closer look

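Cldn7, a claudin of tight junctions, was singled out because its difference had opposite signs in the 2 settings of the extension. It was 1.64 higher in OK+9MS than in OKMS and 0.52 lower in Klf4L than in Klf4S, a Klf4L minus Klf4S value of -0.52. Its level was 6.92 in Klf4S and 6.40 in Klf4L, both under the limit of 7, and 6.64 in lacZ. The difference between the settings was not tested, since each construct has 1 array.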

How the results depend on the processing

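The counts of 449 higher and 172 lower genes depended mainly on the fold threshold. At 1.5-fold they were 1114 and 696, and at 3-fold 185 and 41. With other signal limits, median centring, loess, quantile normalization or the mean of probe sets they stayed between 301 and 459 higher and between 121 and 196 lower. The lowest of these came from requiring signal 7 on both arrays. The share of called genes that were higher was 72.3%, 61.5% at 1.5-fold, 81.9% at 3-fold and 67.9% to 72.8% under the rest. At 1.5-fold, 15 genes differed between Klf4L and Klf4S. Of the 93 genes at 2-fold that were followed one by one, 92 stayed at 2-fold under all 4 alternatives that change values. Atf3 fell to 0.99 with quantile normalization. Other genes named in the text, apart from the 4 reprogramming factors, were not followed in this way. None of the 93 changed sign. The medians of 4 lists near 0 did (Wnt and Notch, Hox genes and the macrophage and blood markers). Crybg1 moved to 2.15 with the mean of its probe sets. No paired analysis was possible because each construct has 1 array. Genes near signal 7 entered by their higher array, so what can be said of weakly expressed genes is limited.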

Other observations

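Genes of ion and water transport across epithelia formed a further set, chosen after their values were seen. All 3 measured subunits of the epithelial sodium channel were higher in OK+9MS: Scnn1a read 6.63 in OKMS and 8.15 in OK+9MS, Scnn1b 5.60 and 7.66, and Scnn1g 5.90 and 7.98. The OKMS levels of Scnn1b and Scnn1g were below 6, so their differences are lower bounds. Of 11 aquaporins 7 reached signal 7 and 3 were at least 2-fold higher, with Aqp3, the glycerol and water channel of basal epidermis, at 8.52 and 10.83 and Aqp5 at 7.62 and 9.46. Aqp5 read 9.54 in lacZ, and between 8.02 and 9.37 in the other 6 cassettes. Gene families were likewise formed after their values were seen, and 2.25% of all genes measured were at least 2-fold higher. Of 52 measured keratins 21 reached signal 7 and 12 were at least 2-fold higher. The counts were 8 and 5 of 22 kallikreins and 7 and 6 of 24 clade B serpins, with none 2-fold lower in these families. The median differences over all measured members were 0.21 for keratins, 0.25 for kallikreins and 0.07 for clade B serpins. Of 28 claudins 9 reached signal 7, 3 were higher and 1 was lower. Mesothelin (Msln), a surface protein of mesothelium, read 8.22 in OKMS and 12.13 in OK+9MS, and 10.46 in lacZ.

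The neuronal and neuroendocrine list went both ways: of 21 genes 10 reached signal 7, 1 was at least 2-fold higher and 2 were lower (Nnat and Elavl4, -1.57), with a median of -0.03. Some other lower genes known from neural development were picked after their values were seen. En2 (-1.81), Foxd1 (-1.72), Zic2 (-1.43), Vax2 (-1.29), Prox1 (-1.14) and Sox11 (-1.12) are transcription factors, and Msi1 (-1.60) is an RNA-binding protein of neural precursors. Pcsk1n, an inhibitor of prohormone processing, read 11.75 in OKMS and 9.74 in OK+9MS, and 8.28 in lacZ. Tubb3, the neuronal tubulin and the higher gene of that list, went the other way, at 8.69 and 10.08. The glucose transporter Slc2a3 read 11.83 in OKMS and 10.14 in OK+9MS, and 7.71 in lacZ.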
